A study of Mus musculus with 3 samples.

Results

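Regions bound by HIF1α in embryonic mouse hearts were mapped by ChIP-seq, the sequencing of DNA pulled down with an antibody, and the strongest of those found in both pulldowns at the ends of protein-coding genes are described here. The samples were 2 libraries of chromatin pulled down with an antibody against HIF1α and 1 input library made without antibody, all from wild-type hearts of the Black-Swiss strain at stage E12.5. Whether the pulldowns used different pools of hearts is not stated in the labels. The authors deposited 1 list of 17289 peaks merged from the calls of both pulldowns. From it, 313 peaks were selected on 3 values: a name marking 2 merged calls, a deposited score of 6 or more, and a centre within 1 kb of either end of a protein-coding gene on chromosomes 1 to 19, X or Y. Of 1989 peaks with 2 calls on these chromosomes, 581 had a score of 6 or more, and 268 of those lay farther than 1 kb from any coding gene end. The 313 are called strong peaks below. They are set beside 719 peaks with 2 calls and a score of 2 to 5 (weaker 2-call peaks), 726 peaks with 1 call and a score of 4 or more, and 1552 peaks with 1 call and a score of 2 or 3, all at coding gene ends by the same distance rule.

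The score is the authors' own value for a peak, a whole number whose unit the file does not state, so it only ranks peaks within the list. Score and call number chose the peaks and are given as a description. There is 1 value per peak and none per pulldown, so no difference below has a replicate error. Intervals of shares are exact 95% intervals, and those of medians cover at most 95%. Both count peaks or genes as if independent. The calls of both pulldowns share the 1 input as their control. Read depth is unknown. In whole-heart chromatin, binding in fewer cells and less binding per cell cannot be told apart.

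HIF1α is the oxygen-regulated subunit of a transcription factor that pairs with ARNT and binds DNA at a short core, ACGTG or GCGTG (RCGTG). When oxygen is plentiful, prolyl hydroxylases of the Egln family mark HIF1α for destruction by the Vhl ubiquitin ligase. When oxygen is low it accumulates and activates genes for glucose uptake, glycolysis, lactate production and oxygen sensing itself. The embryonic heart develops in a low-oxygen setting and depends largely on glycolysis before birth.

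Peaks wholly covered by the RefSeq promoter table (build GRCm38, the same as mm10) could be read as sequence, and 125 strong peaks were, of which 75 hold ACGTG on either strand. The 14 below were picked by hand to show the core at genes of the main groups and, in the last pair, high-scoring peaks without it. Each is the whole deposited peak, on the strand of the nearest annotated start, with ACGTG or its reverse complement CACGT in capitals.
Pgam1 (chr19:41911721-41911824, plus strand, score 55): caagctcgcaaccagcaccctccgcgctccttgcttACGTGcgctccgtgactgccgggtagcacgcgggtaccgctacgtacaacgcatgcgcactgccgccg
Pkm (chr9:59657103-59657230, plus strand, score 40): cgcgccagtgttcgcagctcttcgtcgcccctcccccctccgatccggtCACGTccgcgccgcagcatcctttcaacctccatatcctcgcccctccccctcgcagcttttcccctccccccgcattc
Pgk1 (chrX:106186893-106187005, plus strand, score 25): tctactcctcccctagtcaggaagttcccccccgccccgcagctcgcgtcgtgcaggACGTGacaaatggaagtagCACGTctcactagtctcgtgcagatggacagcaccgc
Pygl (chr12:70227745-70227846, minus strand, score 13): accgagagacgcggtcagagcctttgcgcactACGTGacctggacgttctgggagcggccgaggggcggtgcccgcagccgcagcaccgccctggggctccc
Egln1 (chr8:124949248-124949354, minus strand, score 19): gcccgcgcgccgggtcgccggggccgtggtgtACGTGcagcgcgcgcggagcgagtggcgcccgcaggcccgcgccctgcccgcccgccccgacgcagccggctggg
Ddit4 (chr10:59951899-59952013, minus strand, score 19): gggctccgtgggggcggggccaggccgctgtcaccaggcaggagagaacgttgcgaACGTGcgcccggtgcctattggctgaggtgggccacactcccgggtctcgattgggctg
Cited2 (chr10:17723071-17723178, plus strand, score 12): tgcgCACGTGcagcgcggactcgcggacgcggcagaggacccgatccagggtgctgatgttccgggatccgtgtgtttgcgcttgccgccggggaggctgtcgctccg
Bnip3 (chr7:138909572-138909680, minus strand, score 36): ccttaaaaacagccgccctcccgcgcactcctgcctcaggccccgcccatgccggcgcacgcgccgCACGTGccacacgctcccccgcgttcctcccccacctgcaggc
Tfrc (chr16:32608850-32608964, plus strand, score 14): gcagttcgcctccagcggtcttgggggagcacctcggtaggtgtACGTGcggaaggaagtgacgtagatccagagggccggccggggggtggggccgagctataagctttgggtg
P4ha1 (chr10:59323227-59323332, plus strand, score 46): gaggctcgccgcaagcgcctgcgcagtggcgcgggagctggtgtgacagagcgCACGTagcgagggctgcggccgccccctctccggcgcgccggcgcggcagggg
P4ha2 (chr11:54100799-54100914, plus strand, score 14): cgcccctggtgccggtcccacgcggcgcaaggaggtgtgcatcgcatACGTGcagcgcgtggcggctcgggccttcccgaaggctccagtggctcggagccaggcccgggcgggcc
Zfp292 (chr4:34882905-34883008, minus strand, score 29): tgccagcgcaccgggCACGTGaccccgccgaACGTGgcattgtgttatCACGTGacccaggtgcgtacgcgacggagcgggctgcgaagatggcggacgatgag
Kmt2a (chr9:44881385-44881515, minus strand, score 41): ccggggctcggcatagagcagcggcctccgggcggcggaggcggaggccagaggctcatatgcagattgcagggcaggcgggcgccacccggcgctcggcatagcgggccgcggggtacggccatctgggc
Prelid1 (chr13:55321988-55322106, plus strand, score 18): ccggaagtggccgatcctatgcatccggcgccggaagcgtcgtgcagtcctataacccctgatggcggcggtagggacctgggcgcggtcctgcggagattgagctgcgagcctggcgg

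In the first 12 of these ACGTG stands once, except at Pgk1 with 2 sites and Zfp292 with 3. The GCGTG form, which is not in capitals, also occurs in some of them. Kmt2a and Prelid1, with scores of 41 and 18, hold neither ACGTG nor GCGTG in the 101 bases around the peak centre. That absence says only that these letters are not in the window.

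The strong peaks differed from the other groups in how often they held the core. In the 101 bases around the centre, where the promoter table covers them, ACGTG on either strand was found in 79 of 135 strong peaks (58.5%, interval 49.7 to 66.9%), against 107 of 313 weaker 2-call peaks (34.2%, 28.9 to 39.7%), 22.8% of 1-call peaks of score 4 or more and 14.5% of 1-call peaks of score 2 or 3. Windows of that length placed at the strong peaks' median position in all coding promoters held it in 8.32%. The GCGTG form was in 46.7% of strong windows and 33.2% of weaker ones, against 19.0% of all promoter windows. Either form was in 78.5% of strong windows, 54.0% of weaker 2-call windows and 37.0% of the lowest 1-call group. Over the whole 300-base promoter that holds the peak centre, ACGTG stood in 109 of 155 (70.3%) at strong peaks and 50.5% at weaker ones, against 20.7% of all coding promoters, and GCGTG in 69.7% and 61.3%, against 38.5%.

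The share with ACGTG was higher in the upper score bands of the strong peaks. It was 41.7% (15 of 36) at score 6, 52.0% (13 of 25) at score 7, 65.5% (19 of 29) at 8 or 9, 61.5% (16 of 26) at 10 to 14, 83.3% (10 of 12) at 15 to 29 and 85.7% (6 of 7) at 30 or more. The order breaks once, at 10 to 14, and the upper bands hold few windows. Across the kinds of window, median GC was 67.3% in strong, 66.3% in weaker 2-call and 58.4% in all promoter windows, and the median number of CpG dinucleotides 11, 10 and 5. Per 100 CpG, ACGTG occurred 6.24 times at strong peaks, 4.03 times at weaker ones and 1.58 times in all promoter windows. The part of base composition in the shares was not tested.

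**Figure D1:**
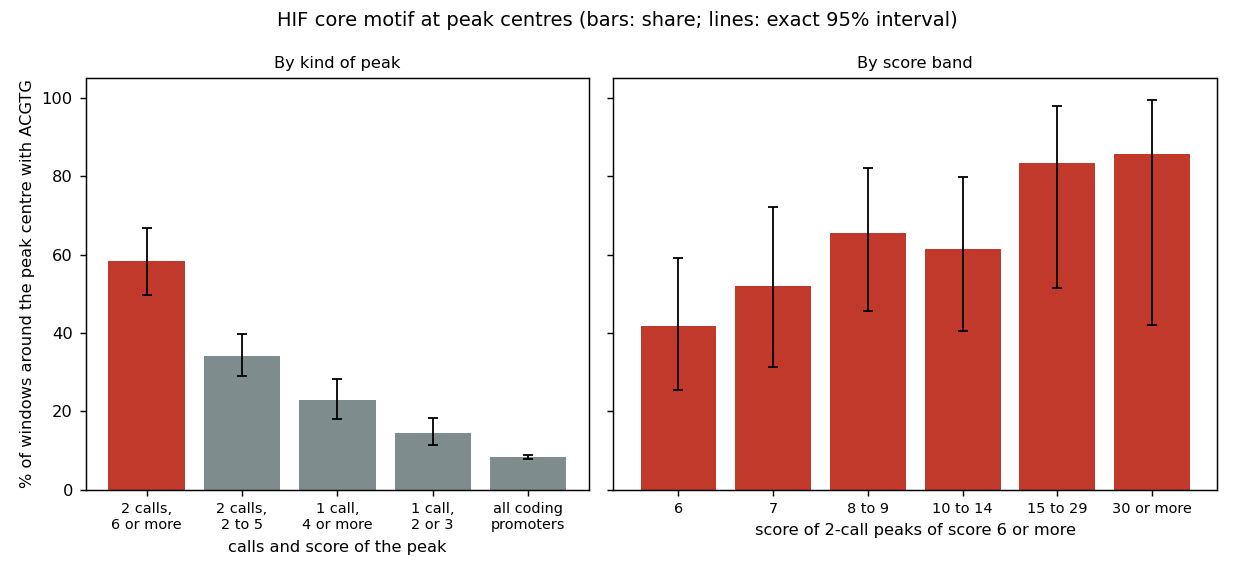
Share of 101-base windows around the peak centre that hold ACGTG on either strand (y axis, %), by kind of peak beside all coding promoters (left) and by score band of the strong peaks (right); bars are shares and lines exact 95% intervals. The strong peaks stand at 58.5% and the weaker 2-call peaks at 34.2%, and within the strong peaks the share is 41.7% at score 6 and 85.7% at 30 or more.

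The bases around the core also differed. TACGTG was in 32 of 135 strong windows (23.7%, 16.8 to 31.8%) and 22 of 313 weaker ones (7.03%, 4.46 to 10.4%). GACGTG was in 22.2% and 15.3%, AACGTG in 5.19% and 4.79%, and CACGTG, the E-box that other basic helix-loop-helix factors such as USF and MYC also bind, in 10.4% and 8.63%. The difference was therefore mostly in the form preceded by T. Among sites other than CACGTG, T came before the core in 46.6% of 73 sites at strong peaks and 27.8% of 90 at weaker ones, while C came after it in 50.7% and 46.7%. When all 512 words of 5 bases (with strands joined) were ranked by the difference in share between strong and weaker windows, a count added after the data were seen, ACGTG was the first with 24.3 percentage points, before CGCAC with 19.2, CGTGC with 18.9 and ACGTA with 16.3, which overlap it or its flanks.

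Where a window held the core, its nearest site lay a median of 14 bases from the centre at strong peaks and 15 bases at weaker 2-call peaks. It lay within 20 bases in 55 of 79 strong windows (69.6%) and 65 of 107 weaker ones (60.7%). The strong peaks therefore had more sites and not a clearly tighter placement, and 7.41% of strong windows against 4.79% of weaker ones had 2 or more.

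**Figure D2:**
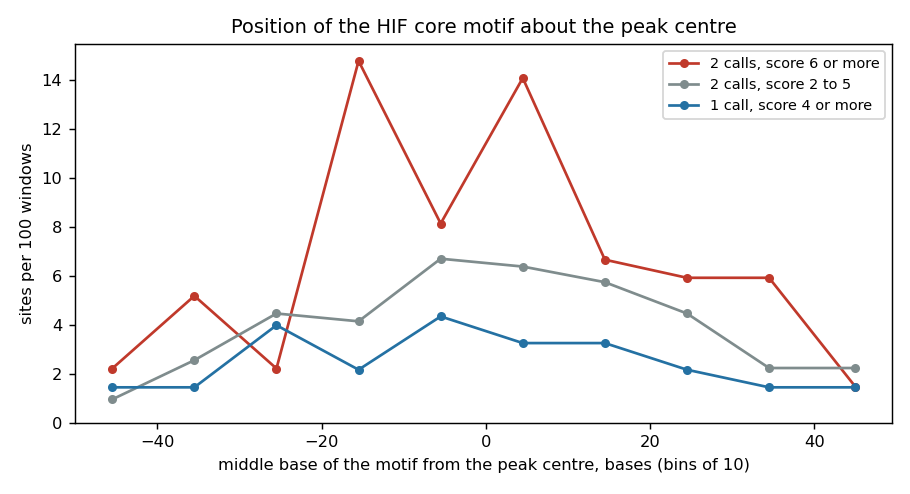
Position of the middle base of each ACGTG site from the peak centre (x axis, bases, bins of 10) against sites per 100 windows (y axis), for strong peaks, weaker 2-call peaks and 1-call peaks of score 4 or more. Strong peaks reach 14.8 sites per 100 windows at offsets of -20 to -11 bases and 14.1 at 0 to 9 bases, and weaker 2-call peaks at most 6.71. The sign of an offset does not stand for upstream or downstream of a gene.

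At the other end of that ranking, words less frequent at strong peaks were CGGAA, in 26.7% of strong and 39.9% of weaker windows, CTTCC, in 36.3% and 49.2%, and CTCCA, in 16.3% and 28.4%. For the other motifs searched by name, strong and weaker peaks differed less than for ACGTG. In the 300-base promoters, the GC box GGGCGG was in 72.3% at strong peaks and 72.9% at weaker ones (46.3% of all coding promoters), the ETS word CCGGAAG in 24.5% and 27.3% (11.9%), and the E-box CACGTG in 17.4% and 16% (7.91%). The CREB word TGACGTCA was in 3.87% and 3.09% (2.33%), the NRF1 motif in 3.23% and 2.06% (1.33%), the YY1 motif in 3.87% and 3.87% (0.972%) and the ZNF143 motif in 1.29% and 0.515% (0.440%). Both groups lay below all promoters for CCAAT, with 27.1% and 34.8% (39.2%), and for TATAAA, with 6.45% and 5.93% (13.3%). All were searched on both strands, CACGTG contains ACGTG, and a match is not a site shown to be bound.

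The highest score at a coding gene end was 157, at Narf (nuclear prelamin A recognition factor; chr11:121236697-121236801, 488 bp upstream). Next came Eno1 (109; chr4:150236878-150236986, 224 bp inside the gene), which encodes the glycolytic enzyme enolase, Ankrd37 (100; chr8:46000023-46000128), a small ankyrin-repeat protein, and Lars2 (85), the mitochondrial leucyl-tRNA synthetase. The Lars2 peak was not checked against any list of artefact-prone regions. Most strong peaks scored far less: the median was 8 with quartiles of 6 and 12, 140 of 313 (44.7%) scored 6 or 7, 110 (35.1%) scored 10 or more and 28 (8.95%) scored 20 or more. Of those 28, 9 lay at genes of the list of glycolysis and glucose uptake. Another 8 lay at genes of the list of oxygen sensing and HIF feedback, so that 17 (60.7%) lay at a gene of some list. Those 8 were Narf, Ankrd37, Kdm3a, P4ha1, Bnip3, Fam162a, Ppp1r3c and Gbe1. The prolyl hydroxylase Egln1 of that list scored less, with 19.

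**Figure D3:**
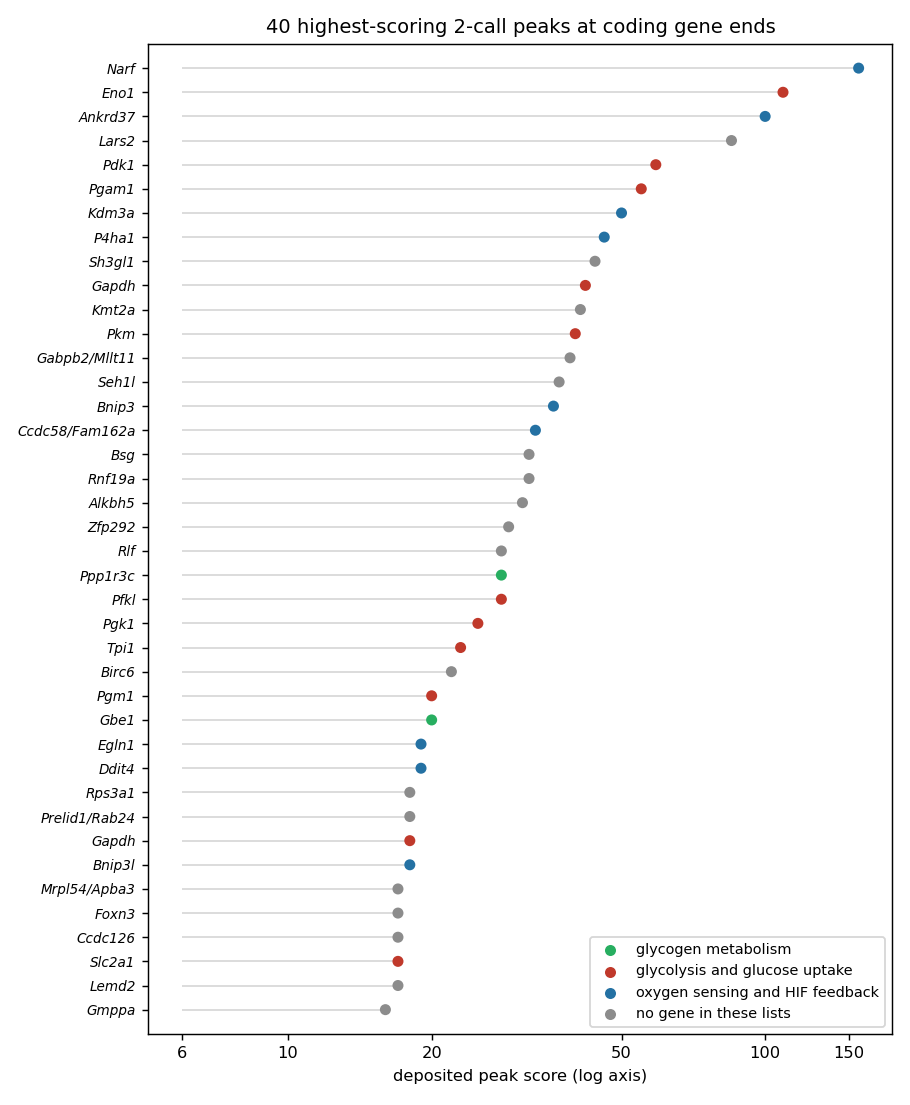
Deposited score (x axis, log scale) of the 40 highest-scoring strong peaks, with 1 point per peak labelled by its nearest coding gene and, after a slash, a second coding gene within 1 kb; colours mark the gene list. Narf, Eno1 and Ankrd37 stand at 100 to 157, and glycolysis genes fill 9 of the 28 places at 20 or more.

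In all, 383 coding genes had an end within 1 kb of a strong peak, 1.76% of 21779 genes. The gene lists were chosen with earlier results of these data known, so their shares are only a description. Glycolysis and glucose uptake had 13 of 33 listed genes at a strong peak (39.4%, interval 22.9 to 57.9%). They cover every enzyme step from glucose to pyruvate except those of Gpi1 and the aldolases. The glucose transporter Slc2a1 had a score of 17, hexokinase Hk2 14, phosphofructokinase Pfkl 28, triosephosphate isomerase Tpi1 23 and Gapdh 42 and 18 at 2 peaks. Phosphoglycerate kinase Pgk1 (chrX:106186893-106187005) had 25, phosphoglycerate mutase Pgam1 55, enolases Eno1 and Eno2 109 and 10, and pyruvate kinase Pkm 40. The pyruvate dehydrogenase kinases Pdk1 and Pdk3, which inhibit pyruvate dehydrogenase, had 59 and 8, and the phosphoglucomutase Pgm1, which links glucose phosphates to glycogen, had 20. Of the rest, Aldoc and Pgm2 lay at weaker 2-call peaks, the lactate transporters Slc16a3 and Slc16a1 at 1-call peaks, and 16 at none. Those without a peak centre within 1 kb of an end include Ldha (lactate dehydrogenase), Aldoa, Gpi1, Hk1, Pfkp and Pfkfb1 to Pfkfb4. Peaks farther away or deeper inside a gene are not counted here, and a window of 5 kb gave 18 of 33 genes a strong peak. Bsg, which carries lactate transporters to the membrane and was not in the list, had a score of 32.

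Glycogen genes had 6 of 15 at a strong peak (40%, 16.3 to 67.7%). Genes of both synthesis and breakdown are among them. Ppp1r3c and Ppp1r3b, which bring protein phosphatase to glycogen, had scores of 28 and 9, the branching enzyme Gbe1 20 and 7 at 2 peaks, glycogen synthase Gys1 15 and liver glycogen phosphorylase Pygl 13. The Gys1 peak lies outside Gys1 but inside the annotated span of Ruvbl2, 102 bp upstream of one of that gene's starts.

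Oxygen sensing and HIF feedback had 26 of 60 genes at a strong peak (43.3%, 30.6 to 56.8%). Some of them are also in the lists of glycogen, hydroxylases, demethylases or autophagy. Despite its name, the list also holds genes of other roles, such as Tfrc and Gbe1. Like the other lists it was chosen with earlier results known, so its share is only a description. Feedback genes were present at several steps. The prolyl hydroxylase Egln1 had 19, Cited2, which competes with HIF for its coactivator, had 12 and 11 at 2 peaks, and the repressors Bhlhe40 and Bhlhe41 had 10 and 7. Ddit4, an inhibitor of mTORC1, had 19. Mitochondrial genes were Bnip3 (36) and Bnip3l (18 and 6), receptors for the removal of mitochondria, Fam162a (33), Higd1a (13) and Ndufa4l2 (13), a relative of a cytochrome oxidase subunit. The transferrin receptor Tfrc, which takes up iron, had 14, and the vascular peptide gene Adm 7. Of the other listed genes, 5 lay at weaker 2-call peaks (Arnt, Rcor2, Stc2, Cox4i2 and Siah2), 7 at 1-call peaks, including Vhl, Epas1 and Egln2, and 22 at none. Hif1a itself, Vegfa, Egln3, Car9, Epo and Hmox1 are among the 22, which lack a peak centre within 1 kb of an end. With a window of 5 kb, 33 of the 60 genes had a strong peak.

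Enzymes that use oxygen as a substrate, or their subunits, were in 2 lists, whose shares have overlapping intervals. In the list of collagen and endoplasmic reticulum hydroxylases and oxidases, 5 of 11 genes (45.5%, 16.7 to 76.6%) had a strong peak: the prolyl hydroxylase subunits P4ha1 (46), P4ha2 (14) and P4hb (10), the oxidase Ero1a (16) and the lysyl hydroxylase Plod3 (13). Of the list of histone and DNA demethylases, which need oxygen too, 4 of 27 (14.8%, 4.19 to 33.7%) had one: Kdm3a (50; chr6:71633387-71633498), Tet2 (15), Jmjd6 (14) and Kdm4b (9). Alkbh5, an RNA demethylase outside the list, had 31, and Asph, an aspartyl hydroxylase outside the list, 15. The Kdm3a peak lay 452 bp upstream of the gene, while the Tet2 peak lay 740 bp inside it and 7 bp upstream of another annotated start.

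The 45 strong peaks at genes of the glycolysis, oxygen sensing or glycogen list were set beside the other 268, a split made after the data were seen. Score chose the peaks, and the lists were chosen with earlier results of these data known, so the values are only a description. The median score of the 45 was 16, against 7 for the others, and 37 of 45 scored 10 or more, against 73 of 268. The windows of the 45 held ACGTG in 18 of 18 (interval 81.5 to 100%), against 61 of 117 (52.1%, 42.7 to 61.5%) at the other strong peaks. The share with ACGTG was also higher in the upper score bands, and the part of score in this difference was not tested. The median distance of the 45 from the gene end was 186 bp, against 104 bp.

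The remaining lists of stress, growth and metabolism had few strong peaks. Autophagy had 3 of 27 (11.1%), namely Bnip3, Bnip3l and Atg9a (11), and regulators of mTOR and AMPK 2 of 21 (9.52%), Ddit4 and Akt1s1. The p53 and apoptosis list had 2 of 24 (8.33%), the cell death genes Bcl2l11 (7) and Bax (6). The unfolded protein and integrated stress list had 2 of 30 (6.67%), Shmt2 (13) and the chaperone Hsp90b1 (7), and cell cycle drivers 2 of 32 (6.25%), the mitotic kinase Aurka (13) and cyclin Ccne1 (6). Angiogenic and growth factors had 1 of 28 (3.57%), Adm, and the tricarboxylic acid cycle and respiratory chain 1 of 34 (2.94%), Ndufa4l2. These shares rest on 1 to 3 genes each, beside 1.76% of all coding genes.

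No strong peak lay at a gene of the 4 lists of heart cell types. The list of cardiac transcription factors had 0 of 28 at a strong peak, sarcomere and calcium handling 0 of 30, endothelial and endocardial markers 0 of 20, and epicardial, cushion and smooth muscle markers 0 of 20. Weaker 2-call peaks stood at 1 gene of the epicardial list, and 1-call peaks at 4, 2, 1 and 0 genes of the 4 lists in this order. At the 1.76% of all coding genes, lists of this size would hold few genes or none, so these counts lie near the background. Erythroid markers had 1 of 18, Tfrc, and the list of neuron and liver genes 1 of 20, Apoa2 (7, at 898 bp). A peak list holds no expression, so the labelled tissue could not be checked against its markers here.

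**Figure D4:**
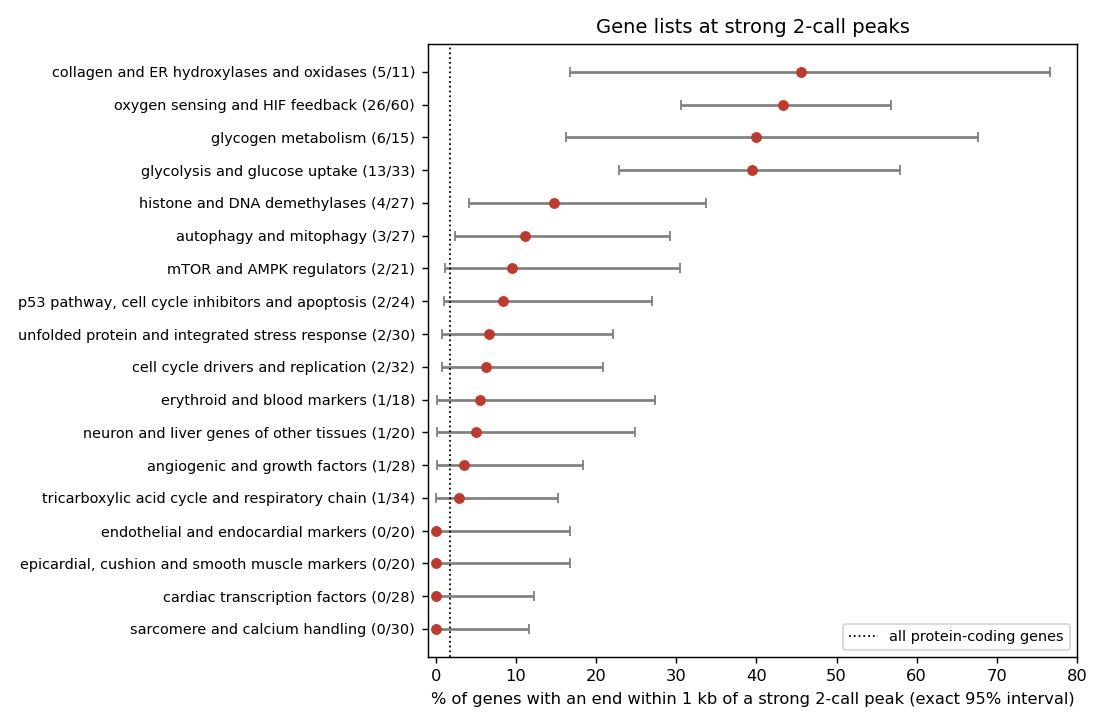
Share of the genes of each list that have an end within 1 kb of a strong peak (x axis, %, points; lines are exact 95% intervals), with the count of genes in parentheses; the dotted line is the share of all coding genes. The hydroxylase, oxygen sensing, glycogen and glycolysis lists stand between 39.4% and 45.5%, and the 4 lists of heart cell types at 0. All lists were chosen with earlier results of these data known.

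Name families had shares of 0 to 7.25%, beside 1.76% of all coding genes, and most rest on few genes. Zinc finger genes had 12 of 465 (2.58%), with Zfp292 (29) the highest, RAB GTPases 5 of 69 (7.25%), mitochondrial ribosomal proteins 4 of 78 (5.13%), splicing factors 4 of 79 (5.06%), with Sf3b1 (13), initiation factors 3 of 56 (5.36%), with Eif2b5 (13), and proteasome subunits 2 of 39 (5.13%). Cytosolic ribosomal proteins had 1 of 82 (1.22%), Rpl5, and the name pattern for them leaves out Rps3a1 (18, at 3 bp) and Fau (6, at 1 bp). Histones had 0 of 103 and olfactory receptors 0 of 1105. Families singled out after their values were seen were the KMT histone methyltransferases with 4 of 8, Kmt2a (41), Kmt2e (15), Kmt2b (6) and Kmt2c (6), and the USF factors with 3 of 3, Usf1 (7), Usf2 (7, at 689 bp) and Usf3 (6). Hilpda (9), a lipid droplet protein, and Nampt (15), of NAD salvage, were also named after their values were seen. In all, 94 of the 383 genes (24.5%) were in a list or family, so most were in none.

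High-scoring peaks outside the lists included Sh3gl1 (44, at 177 bp), an endocytosis protein, Kmt2a (41, at 98 bp), Seh1l (37, at 66 bp), a nuclear pore subunit, and the ubiquitin ligases Rnf19a (32, at 140 bp) and Birc6 (22, at 114 bp). The pair Gabpb2 and Mllt11 shared 1 peak of score 39. Zfp292 (29) and Rlf (28) are zinc finger proteins.

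Most strong peaks lay at the start of a gene. Distance to a gene end was part of the selection and is given as a description. Centres of strong peaks lay a median of 114 bp (interval 97.5 to 134) from the nearest coding gene end, against 96.5 bp (85.5 to 111) for the weaker 2-call peaks, 134 bp for 1-call peaks of score 4 or more and 190 bp for those of 2 or 3. Within 100 bp lay 146 of 313 (46.6%), against 51.5% of weaker 2-call peaks. The closest were Cradd and Catsperd at 0 bp, Fau and Plpp5 at 1 bp, Rps3a1, Arid1b and Rbpms at 3 bp, Nelfa and Rabggta at 4 bp and Ganab at 6 bp. Median distance was 94.8 bp at score 6 and 169 bp at 30 or more. The strand of the nearest gene, taken from the promoter table, was known for 250 of 313. Of these, 243 (97.2%, 94.3 to 98.9%) lay at the gene's start, against 97.2% of weaker 2-call peaks and 87.0% of 1-call peaks of score 2 or 3.

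Where an annotated start lay within 1 kb, the centre was upstream of it in 173 of 242 strong peaks (71.5%, 65.4 to 77.1%) and 365 of 557 weaker ones (65.5%, 61.4 to 69.5%). The median position was -66.2 bp (-80.5 to -48.5) for strong peaks and -37.5 bp (-44.5 to -30.5) for weaker ones, so that the strong peaks lay farther upstream. Of strong peaks, 153 of 313 (48.9%) lay outside every coding gene, against 44.8% of weaker ones. Without transcripts, exon, intron and UTR could not be assigned.

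**Figure D5:**
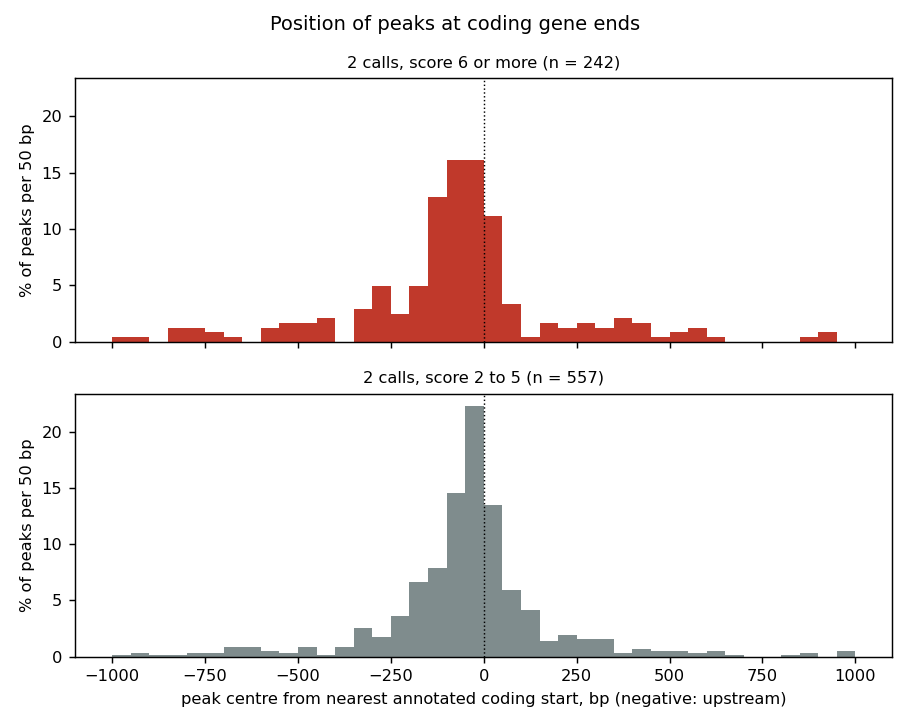
Distance of the peak centre from the nearest annotated coding start (x axis, bp, negative upstream) against the share of peaks per 50 bp (y axis, %), for strong peaks (top) and weaker 2-call peaks (bottom). Both pile up just upstream of the start, with medians of -66.2 bp and -37.5 bp.

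Of the 250 strong peaks with a known strand, 7 were nearest to the far end of a gene, where transcription stops. These were at Lars2, Tut7 (14), Shmt2 (13), Gm2a (9), Lsr (7), Adm (7) and Sypl2 (6). Strong peaks of unknown strand, such as that at Pcdhga9, could not be classified. The Lars2 peak (chr9:123461939-123462039) lies inside the gene, 687 bp from its end, and is 101 bp wide, so both calls share 1 position, as in 4 of 313 strong peaks. The Shmt2 peak, also 101 bp wide, lies 293 bp beyond Shmt2 and inside Ndufa4l2, 324 bp from an end of that gene. The peak near Adm lies 600 bp beyond it and within 1 kb of the long noncoding RNA Gm28863.

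Strong peaks had 1 coding gene within 1 kb in 254 of 313 cases (81.2%) and 2 in 58 (18.5%). Near 2 or more genes lay 18.8% of strong peaks and 16.3% of weaker 2-call peaks. Of the 58, 41 had both strands known: 32 had the starts of both genes, on opposite strands, within 1 kb, 9 had a start and a far end, and 0 had 2 far ends. In 4 of the 32 the centre lay outside every coding gene, and in the rest inside a gene. Pairs of opposite starts were near 10.2% of strong peaks and 8.76% of weaker ones. Examples are Ccdc58 and Fam162a (33), Prelid1 and Rab24 (18), Mettl23 and Jmjd6 (14), Plod3 and Znhit1 (13), Aurka and Cstf1 (13), Ccdc151 and Prkcsh (13), and the chaperonin pair Hspe1 and Hspd1 (7). The Mettl23 and Jmjd6 peak lies 877 bp inside Jmjd6. A peak near 2 genes cannot be assigned to either. The single peak with 3 or more genes, nearest to Pcdhga9 with a score of 6 on chromosome 18, touched 24 clustered protocadherin genes, which share their last exons. Without them, 359 genes (1.65%) remained.

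Noncoding genes had an end within 1 kb of 54 strong peaks (17.3%), and 45 of these peaks had a long noncoding RNA there. In 27 peaks (8.63%) the noncoding end was the nearer one. These shares were not counted for weaker peaks or for all coding gene ends, so they are only a description. MicroRNA genes were near 6 peaks, among them Mir707 near both peaks of Akt1s1, Mir8092 by Zfp518a, Mir3077 by Sap18 and Mir3569 by Kmt2b. Setd5 (14, at 530 bp) shares its peak with the long noncoding RNA of the Gt(ROSA)26Sor locus.

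Second peaks nearby were uncommon. Another peak centre of any kind lay within 5 kb of 41 strong peaks (13.1%) and of 82 weaker 2-call peaks (11.4%). In all, 11 genes had 2 strong peaks, among them Gapdh (42 at 720 bp and 18 at 146 bp), Gbe1 (20 and 7), Bnip3l (18 and 6), Cited2 (12 and 11) and Sap30 (10 and 6). A further 2-call peak of score 18 lay 386 bp from the higher Gapdh peak. Pkm had a further 2-call peak of score 24 at 2758 bp, Bnip3 one of 9 at 2376 bp and Slc2a1 one of 6 at 3169 bp.

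The 2 merged calls lay closer together at strong peaks, as read from the merged width, which is 101 bp when both calls coincide. The median width was 116 bp (115 to 117) for strong peaks and 126 bp (123 to 129) for weaker 2-call peaks, and 63.3% of strong peaks against 42.1% of weaker ones were at most 120 bp wide. By chromosome, the share of coding genes at a strong peak was between 0.844% on chromosome 13 and 2.60% on chromosome 10 over the autosomes other than 18. Chromosome 18 stood at 6.07%, with 31 genes, 24 of them the protocadherins at 1 peak. On chromosome X 4 genes (0.415%) had one and on Y none.

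The thresholds divide a continuous range. At score 6 there were 80 strong peaks, and 190 2-call peaks at coding ends scored 5. Just inside were the peaks at Fau, Plpp5, Arid1b and Rbpms (6, at 1 to 3 bp), and just outside those at Ap5s1, Zfp882, Vars and Fhad1 (5, at 1 to 3 bp). By distance, 7 strong peaks lay over 900 bp from the gene end, and 40 2-call peaks of score 6 or more lay 1 to 2 kb away, the closest at Mpp2 (10, at 1010 bp), Trerf1 (6, at 1014 bp) and Colec12 (6, at 1044 bp).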

How the data were processed

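ChIP-seq of HIF1α was done on 2 pulldowns and 1 input from wild-type hearts. The submitters' processing notes name Bowtie2, HOMER and the mm10 build without versions. The authors deposited 1 merged peak list, whose score column holds whole numbers from 2 to 3315 of a unit not given in the sources used here; how multiply mapped reads and artefact-prone regions were handled is not given either, and no such filter was applied here. The final digit of a peak's name was read as its number of merged calls.

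Peak centres were set against gene ends of the RefSeq table GRCm38.p6 and its promoters (250 bases before to 50 after each start), which also gave strands, with Python 3.11.15, numpy 2.4.6, pandas 2.3.3, scipy 1.17.1 and matplotlib 3.10.9. The counting steps were tested on simulated data. Depth is unknown. No test was run: shares carry exact 95% Clopper-Pearson intervals, which cover counting error only. Medians carry order-statistic intervals that cover at most 95%. The peaks, the 18 gene lists and the 17 name families were chosen with earlier results of these data known. Genes named by rule were the 30 highest-scoring peaks, the 10 closest, the 10 highest with 2 or more genes, up to 6 per list, up to 4 per family and 4 at each side of the score threshold; others were chosen after their values were seen. Of 61 symbols for oxygen sensing, 60 matched, of 13 for hydroxylases 11, and of the other lists all. Alternatives changed the score minimum, the distance window, the call number and the genes counted. Values of 2 genes counted in the totals are not reported here.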

Additional observations from a re-analysis of the deposited data

How the results depend on the processing

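Of 56 recomputed values, for 8 results under 7 alternatives each, 45 changed little (shares and medians stayed within their interval). The number of peaks has no interval, and the counts taken as little changed ran from 273 to 398, beside 313. A score minimum of 4 gave 790 peaks and ACGTG in 60.9% of promoters. A score minimum of 10 gave 110 peaks, ACGTG in 81.8% of promoters, 42.7% outside every coding gene, 13.6% near 2 or more genes and a median distance of 136 bp. A window of 500 bp gave a median distance of 96 bp. A window of 5 kb gave 179 bp, 27.1% near 2 or more genes and 93.7% at a start. The shares of glycolysis and oxygen sensing genes stayed within their intervals throughout, at 33.3 to 54.5% and 36.7 to 55.0%. No paired analysis was possible because the merged list holds no value per pulldown and no test was run. The unknown depth limits every absence: a gene without a peak may have lain under the calling threshold. It may also have a peak farther than 1 kb from its ends, which the distance rule leaves out. Motif counts cover only peaks within reach of the promoter table, 135 of 313 by window, which favours centres close to a start. The merged list gives no value per replicate, so none could be left out.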
